A study of Papio anubis with 40 samples.

Results

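The fragments described here are sequence variants of the long 5′ fragments of valine tRNA with anticodon AAC or CAC, measured in the serum of olive baboons (Papio anubis). They are the fragments of 25 to 36 nt that match the start of this tRNA except in a single block of 5 bases: bases 1 to 5, 6 to 10 or 16 to 20. The rule reads only the fragment's name, which encodes its sequence, and no measured value. It found 962 of the 58587 fragments in the table, with 5396349 of 130892201 counts, or 4.12%. Of these, 158 differ in bases 1 to 5, 240 in bases 6 to 10 and 564 in bases 16 to 20. The unchanged start, called the main sequence below, had 508 fragments of the same lengths and 49243102 counts, or 37.6% of the table. Counts ranged widely among the variants: 195 had a single count in all libraries together, and 84 were present in all 40.

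The study followed 8 baboons, in which endometriosis was induced by placing menstrual tissue in the peritoneal cavity. Serum was taken at month 0, ahead of inoculation, and then 3, 6, 9 and 15 months later, so each month is a group of the same 8 animals. The labels list every sample as having had no treatment, give 0.5 mL of serum per draw, and give no age. No uninoculated animals were among the samples, so time since inoculation cannot be told apart from age, season or sampling day. Library totals ran from 198840 (animal PA8001, month 0) to 6245450 counts (PA8914, month 9).

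A long 5′ fragment is the piece of a mature tRNA from its first base to the anticodon loop, where ribonucleases such as angiogenin cut. Those of valine and glycine tRNA are known as abundant small RNAs of mammalian serum. A tRNA is encoded by many gene copies, and copies that share an anticodon but differ elsewhere are called isodecoders. Base 34 is the first anticodon base. In tRNA with anticodon AAC that base is deaminated to inosine, which sequencing reads as G, whereas in anticodon CAC it stays C. The baboon annotation Panubis1.0 lists 8 genes for Val-AAC and 12 for Val-CAC. The 5′ fragments of both begin with the same bases, so a fragment that ends before base 34 does not show which tRNA it came from.

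The sequences below are the most abundant single changes of each block beside the main sequence, and T19C, which is less abundant and is shown because its level set 1 animal apart. Capitals mark the changed base. A change such as T16C gives the main base, the position counted from 1 at the 5′ end, and the variant base.
main, 31 nt: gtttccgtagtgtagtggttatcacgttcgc
T2C, 31 nt: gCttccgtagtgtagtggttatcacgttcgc
G7A, 31 nt: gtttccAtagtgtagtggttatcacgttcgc
T16C, 31 nt: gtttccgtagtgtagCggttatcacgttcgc
T20C, 31 nt: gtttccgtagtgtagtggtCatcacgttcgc
T19C, 33 nt: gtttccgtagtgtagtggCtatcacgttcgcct
Longer fragments of 54 nt run through the anticodon, and there capitals also mark position 34. They are shown because they tie a start to an anticodon.
T16C with C at 34: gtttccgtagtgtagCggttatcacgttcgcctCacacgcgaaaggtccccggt
main with C at 34: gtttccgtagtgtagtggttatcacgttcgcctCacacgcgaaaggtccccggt
main with G at 34: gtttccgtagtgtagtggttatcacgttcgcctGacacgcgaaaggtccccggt
The first of these had 1430 counts, the second 765 and the third 1397.

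One change made up most of the variants. T16C was carried by 207 fragments with 4456489 counts, 82.6% of all counts of variants. As a percentage of the main sequence it stood at 9.05% over all libraries pooled, and the libraries ranged from 3.80% to 26.9% with a median of 9.18%. All 45 single changes that are possible in the 15 positions were observed, and apart from T16C none exceeded 0.269% of the main sequence, the value of G7A. T20C followed G7A at 0.187%, then A9G at 0.182%, T8C at 0.163%, T2C at 0.141%, T4C at 0.134%, T3C at 0.130% and T19G at 0.128%. The place of T20C rested on the month 15 library of PA8001, which held 19864 of its 92311 counts: without it T20C stood at 0.148%, below A9G and T8C. Exchanges of a purine for a purine or a pyrimidine for a pyrimidine (transitions) had a median of 0.130% over 15 changes. Exchanges between the classes (transversions) had a median of 0.00255% over 30 changes, and T19G was the highest of them. The rarest change, T4A, had 13 counts.

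**Figure D1:**
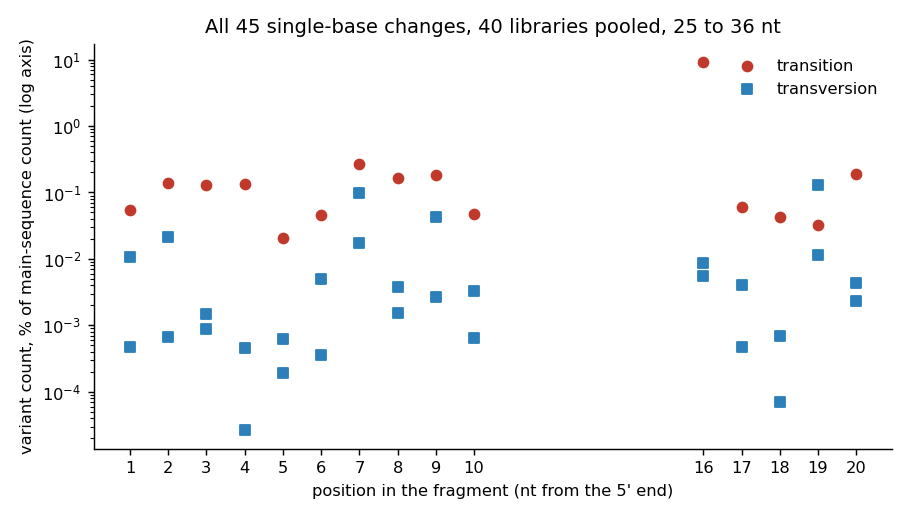
Counts of each of the 45 single-base changes as a percentage of main-sequence counts (vertical log axis) by position from the 5′ end (horizontal axis), 40 libraries pooled, with transitions as red circles and transversions as blue squares. The transition at position 16 stands at 9.05%, and every other point lies at or below 0.269%.

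The same rule applied to other abundant 5′ fragments shows how common such variants were in these libraries. Variants in bases 16 to 20 made up 8.72% of variants and main counts together for Val-AAC/CAC, against 1.41% for Gly-CCC, 1.28% for Gly-GCC and 1.28% for Glu-CTC. Without T16C the valine value was 0.505%, and without their own leading block sequence the other 3 families had 1.06%, 0.95% and 0.841%. In bases 1 to 5 the percentage was 0.515% for Val-AAC/CAC, against 1.58%, 17.2% and 2.82% for the same 3 families. A single block sequence held 82.7% of the Gly-GCC variant counts there. In bases 6 to 10 the percentage was 0.875% for Val-AAC/CAC, against 1.87%, 1.5% and 1.48%. Valine was therefore the family with the highest percentage in bases 16 to 20, through T16C alone, and had the lowest in the other blocks. These are descriptions over pooled counts, with no test.

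T16C fragments also differed from the main sequence beyond the 20 bases that define them. Among fragments of 34 nt or more, 97.3% of 3849 T16C counts read C at position 34 (Wilson 95% interval 96.7 to 97.7%), against 51.3% of 32665 main counts (50.7 to 51.8%). G at position 34 was read in 0.182% of T16C counts, which is 7 counts, and in 38.2% of main counts. Per animal, with counts summed over months, T16C read C in 94.4% to 99.2% of counts, against 42.7% to 66.5% for the main sequence, and no animal overlapped. The share with A at position 34 among A and C averaged 3.06% for T16C and 11.1% for the main sequence. The difference was -8.07 percentage points (SD 2.63, n = 8), lower in 8 of 8 animals, exact two-sided sign-flip p = 0.00781, the smallest that 8 animals allow, and 0.0156 adjusted over the 2 such tests. Because inosine is read as G, the share with G among all 4 bases was also compared, a measure chosen after the data were seen. It averaged 0.179% for T16C, against 38.9% for the main sequence, a difference of -38.7 points (SD 7.32), lower in 8 of 8 animals, with the same exact p = 0.00781.

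Among counts that read C at position 34, T16C stood at 22.4% of the main sequence over all animals. PA8912 had the lowest value, 7.44% (84 T16C counts, against 1129 main counts), and the other 7 animals had 15.7% to 28.4%. The order of the animals depended on length. PA8873, the highest at 28.4%, had 155 T16C against 1578 main counts at 34 to 36 nt, where PA8001 had 1148 against 5029. PA8912 had 42 against 879 there. No intact tRNA was measured, so this compares fragments, not tRNA levels. Intervals cover counting error only.

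A lack of G at position 34 was not particular to T16C. Over the other single changes apart from T20C, none of 276 counts of 34 nt or more read G, which allows a share of up to 1.09%, against 38.2% of main counts, and 81.9% read C. T19G had 46 of these counts, A9G 27, G7A 26, T4C 24 and T2C 18. The share with A among A and C could be tested for T2C alone, with few counts. For T2C the share with A averaged 8.33%, against 11.1% for the main sequence, a difference of -2.80 points (SD 15.1, n = 8, exact sign-flip p = 0.609, adjusted 0.609). For G7A one animal had no A or C count, so no test was made, and over the other 7 animals the difference was -0.997 points (SD 18.6).

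Changes after base 20 gave a further difference. A24C was carried by 0.323% of T16C counts, 6.44% of T20C counts and 0.00671% of A9G counts (6 counts), against 21.3% of main counts. None of the G7A, T2C, T3C, T4C, T8C and T19G counts carried it. Its scarcity was thus shared by these variants, and among them it was most frequent with T20C and next with T16C. G26A was carried by 3.58% of T16C counts and 2.67% of main counts. Most T16C counts, 94.3%, had no change other than T16C up to base 33, and for the variants apart from T16C and T20C the share with a single change was 98.0%. How many mismatches the authors' alignment allowed is not given in the sources used here, and its part in the scarcity of G at position 34 and of A24C among the variants was not tested.

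T16C was present in every animal and every library, and its level relative to the main sequence was lowest in 1 animal, PA8912, and highest in PA8001 and PA8003. These percentages are a description, with no test between animals. For the 31 nt fragment tRF-31-79MP9PMNH57SD, counts ranged from 3580 to 65200 counts per 1000000 (CPM, after TMM scaling of library totals), with a median of 20100. Relative to the main fragment of the same length it averaged 23.0% ± 9.40 in PA8001 and 21.2% ± 8.12 in PA8003 (SD over 5 months). It averaged 11.4% ± 1.58 in PA8835, 9.70% ± 1.83 in PA8872, 10.4% ± 3.62 in PA8873, 11.1% ± 1.81 in PA8914 and 10.6% ± 1.72 in PA8915. It averaged 5.51% ± 0.509 in PA8912. The 5 libraries of PA8912, at 5.00% to 6.29%, all lay below the 35 libraries of the other animals. PA8001 ranged from 16.7% to 39.5% and PA8003 from 16% to 34.9%, while PA8835, PA8872, PA8873, PA8914 and PA8915 reached at most 16.4%. The 32 nt fragment gave the same lowest animal, PA8912 at 7.48% ± 1.55, and the same highest, PA8001 at 27.2% ± 8.94 and PA8003 at 25.5% ± 6.51. So did the 30 nt fragment, with 6.91% ± 1.44 in PA8912, 38.4% ± 17.2 in PA8001 and 40.2% ± 28.5 in PA8003.

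**Figure D2:**
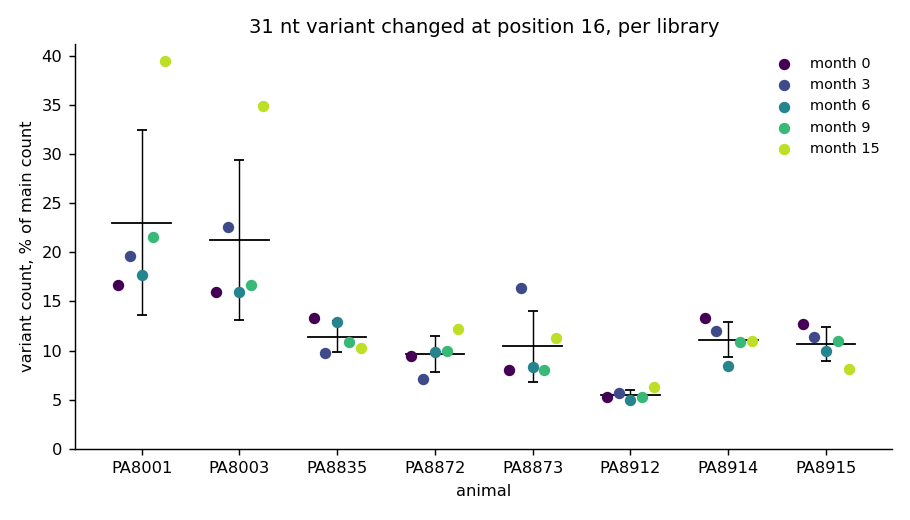
Counts of the 31 nt fragment with T16C as a percentage of the 31 nt main fragment (vertical axis) in each animal (horizontal axis), with 1 point per library coloured by month, and the mean with its SD over 5 months in black. PA8912 lies at 5.00% to 6.29% and the month 15 libraries of PA8001 and PA8003 lie highest, at 39.5% and 34.9%.

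The highest percentages, those of PA8001 and PA8003 at month 15, went with low main counts. There the 31 nt T16C fragment had 15500 and 15900 CPM, within the range of the other animals at month 15 (11100 to 18500 CPM over all 8). The main fragment had 39100 CPM in PA8001 and 45500 CPM in PA8003, against a median of 142000 CPM at month 15. After TMM scaling, T16C was thus high in these 2 libraries as a share and not as a level. Without scaling, all variants together made up 4.86% of the library of PA8001 and 1.46% of that of PA8003. These were the highest and the lowest values at month 15.

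Fragment length also mattered for T16C. Pooled over libraries it stood at 39.5% of the main sequence at 28 nt and 60.2% at 29 nt, against 11.3% at 30 nt, 8.34% at 31 nt, 10.9% at 32 nt, 10.5% at 33 nt and 10.6% at 34 nt. It stood at 2.64% at 35 nt and 2.12% at 36 nt. The 34 nt value rested on the month 15 library of PA8001, which held 1103 of its 1949 T16C counts, and was 6.54% without it. The 29 nt value was 20.4% or more in each of the 39 libraries that had main fragments of that length, with a median of 55.9% and a highest value of 155%. Most T16C counts lay at 31 nt (3085870 counts) and 32 nt (1093800 counts), as those of the main sequence did, so the short fragments are a small part of the total.

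**Figure D3:**
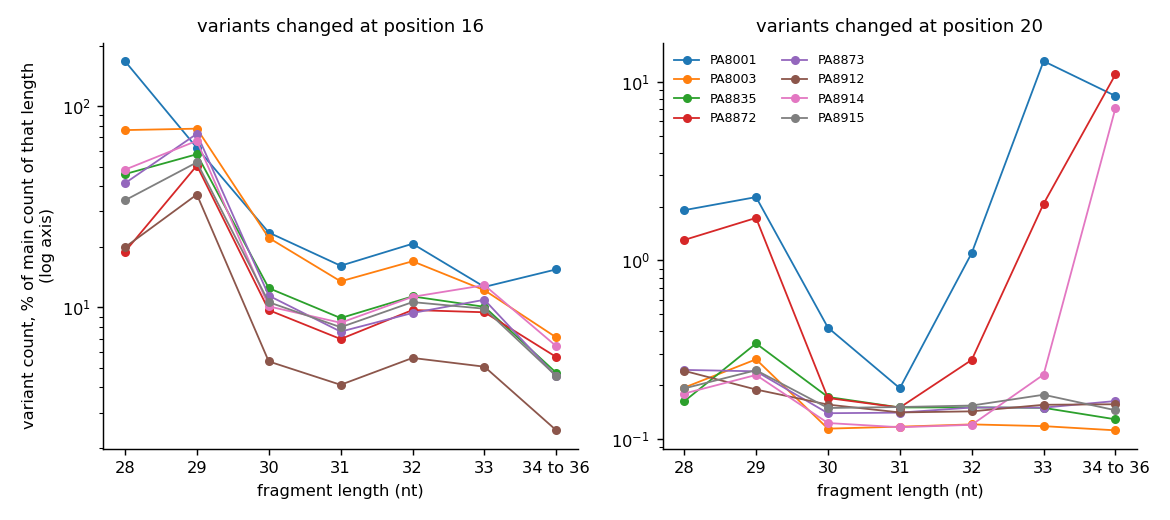
Variant counts as a percentage of main-sequence counts of the same length (vertical log axes) by fragment length in nt (horizontal axes), with counts of 5 months summed in each of 8 animals (coloured lines), for T16C on the left and T20C on the right. T16C is highest at 28 and 29 nt in every animal, and T20C exceeds 1% at 34 to 36 nt in PA8001, PA8872 and PA8914.

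T20C behaved otherwise. At 31 nt it stood at 0.101% to 0.990% of the main sequence in the 40 libraries, with a median of 0.142% and the highest value in PA8001. Among fragments of 34 to 36 nt, PA8872 had T20C in every draw, at 13.2%, 3.92%, 6.99%, 15.2% and 15.2% of the main sequence at months 0, 3, 6, 9 and 15 (140, 27, 16, 41 and 87 counts). PA8001 had it at month 15, at 9.28% (622 counts), with 2 counts in its other 4 libraries together. PA8914 had it at month 15, at 19.0% (263 counts), with 4 counts in its other libraries. In the other 5 animals the highest value was 0.565%, and their 25 libraries held 19 counts in all. At 28 and 29 nt, with months summed, T20C stood at 1.30% and 1.73% in PA8872, against 0.342% at most in the other animals apart from PA8001. In PA8001 it stood at 1.91% and 2.26%, but 22 of its 23 counts at 28 nt and 72 of its 74 at 29 nt came from the month 15 library, and without that library the values were 0.137% and 0.0713%. The 33 nt fragments followed the same animals in part: 19.5% in PA8001 at month 15, and 5.99%, 0.767%, 0.292%, 1.01% and 1.57% in PA8872 over the 5 months, against 0.626% in PA8914 at month 15.

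**Figure D4:**
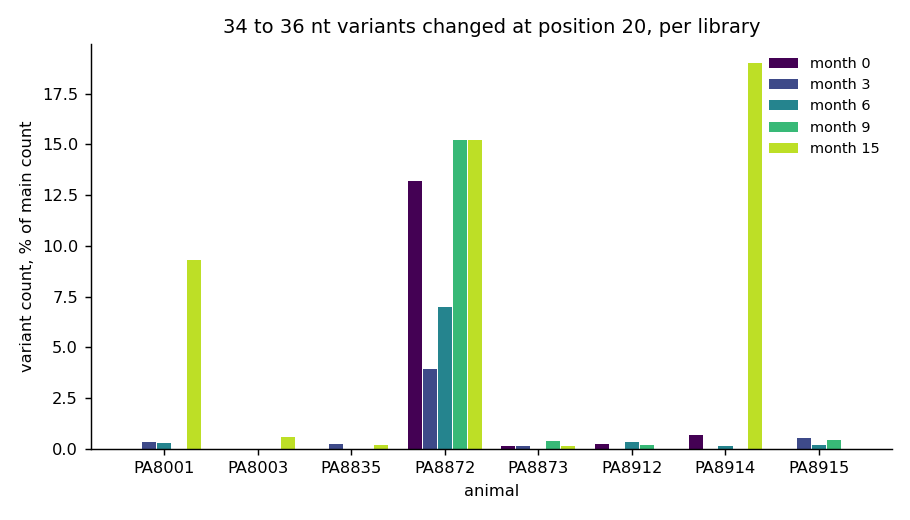
T20C counts as a percentage of main-sequence counts for fragments of 34 to 36 nt (vertical axis) in each animal (horizontal axis), with 1 bar per library coloured by month. PA8872 has 3.92% to 15.2% in all 5 draws, and PA8001 and PA8914 have 9.28% and 19.0% at month 15 only.

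The long T20C fragments of these animals did not carry the same base at position 34. In the month 15 library of PA8001, 568 of 623 T20C counts of 34 nt or more read G and 25 read C. In that of PA8914, 257 of 265 read G and 2 read C. In PA8872, C was more frequent in each draw: 136 of 184 counts at month 0, 31 of 41 at month 3, 21 of 21 at month 6, 41 of 43 at month 9 and 90 of 93 at month 15. G was read there in 39, 6, 0, 0 and 2 counts. So T20C with G at 34 was mostly a matter of 2 libraries, and T20C with C at 34 of 1 animal. The most abundant G-ending form is shown with both bases in capitals.
T20C with G at 34, 34 nt: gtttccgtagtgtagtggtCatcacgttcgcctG

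A search over all 45 changes for others of this kind, set up after the T20C values were seen, compared each animal with the median of the other 7 at 31, 32, 33 and 34 to 36 nt. Of 722 combinations of change, length and animal with at least 20 counts, 9 stood at 5 times that median or more, and all 9 were changes at positions 19 and 20. T20C gave 6 of them. T19C and T19A gave the other 3, all in PA8001. At 33 nt T19C in PA8001 was 1.46%, 0.578%, 0.770%, 0.137% and 0.135% of the main sequence at months 0, 3, 6, 9 and 15. The counts were 7, 60, 91, 14 and 90, the first against 481 main counts in the shallowest library. In the 35 libraries of the other animals T19C of 33 nt stood at 0 to 0.0828%. Every draw of PA8001 lay above all draws of the others. At 34 to 36 nt PA8001 had 20 T19C counts, against 1 count in the other 7 animals together. T19A at 33 nt stood at 0.0965% in PA8001, with 96 counts, and at 0.00409% to 0.0111% in the others. At 31 nt the pooled T19C percentage was 0.0403% in PA8001, against 0.0325% in the others, so the difference grew with length. Among the T19C fragments of 34 nt or more in PA8001, 20 counts read C at position 34, 2 read A and none read G.

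The test across animals asked, for each fragment, whether the animals differed in CPM once month was taken into account (edgeR quasi-likelihood fit of all 40 libraries, the 7 animal terms tested jointly). A filter on low counts kept 2447 fragments, among them 162 of the 962 variants, which held 99.5% of variant counts. With Benjamini-Hochberg adjustment over the 2447 and a threshold of 0.05, 32 of the 162 variants passed, or 19.8%, against 34.1% of all fragments tested and 9 of 149 main fragments. The share for variants was thus below that of all fragments in this fit. Without the filter it was above, with 63 of 962 variants called, against 1.82% of all 58587 fragments. By change, 19 of 48 T16C fragments passed, 3 of 12 T20C fragments and 10 of the other 102. The number called was 13 without PA8912, where 31.8% of all fragments passed, and 9 without PA8914, where 11.5% did.

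The smallest p belonged to T19C at 33 nt, tRF-33-79MP9P9IH57SD3, with edgeR adjusted p = 5.3e-06. PA8001 had 7.28 to 43.1 CPM of it over the months, and no library of another animal exceeded 5.78 CPM. It thus passed the count filter largely through PA8001, and its p is not independent support for the difference. T16C fragments with 2 further changes came next: tRF-32-79MP9PMN45ISJ with A21C and G26A (adjusted p = 0.0036) and tRF-32-79MP9PMNHRISJ with A24C and G26A (adjusted p = 0.00443). T20C at 33 nt, tRF-33-79MP9P9MH57SD3, passed at 0.00503, and T4C at 32 nt, tRF-32-7RMP9P9NH57SJ, at 0.00643. The month 15 library of PA8001 had 254 CPM of the fragment with A24C and G26A, and the next library of that month 41.0 CPM. For T20C at 33 nt it had 4910 CPM, and the next 46.0 CPM, whereas PA8872 was highest at months 0, 3 and 9. The main fragments of 32 and 33 nt did not pass (adjusted p = 0.45 and 0.832). Of the abundant 31 nt fragments, T4C (adjusted p = 0.0105) and A9G (0.0274) passed. T16C (0.187), T2C (0.108), T3C (0.185), T8C (0.0777) and G7A (0.916) did not, nor did the main fragment (0.286). The percentages of T16C given above are relative to the main sequence, and this fit tests CPM, so the 2 answer different questions.

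Over time, the variants did not pass at any month against month 0. None of the 162 variants had an edgeR adjusted p under 0.05 at month 3, 6, 9 or 15, and the percentages of all 2447 fragments that passed were 0, 0, 0 and 2.37. The 2.37% at month 15 was 2.21% higher and 0.163% lower. At an unadjusted p under 0.05 there were 8, 45, 20 and 23 of the 162 variants, against 73, 310, 201 and 509 of the 2447 fragments. DESeq2 called 0, 1, 0 and 7 variants, and 0%, 0.695%, 0% and 6.17% of all fragments. The median log2 fold change of the variants was 0.37 at month 3, 0.44 at month 6, 0.34 at month 9 and -0.02 at month 15. Main fragments had medians of 0.32, 0.44, 0.35 and 0.02, and all fragments 0.10, 0.01, 0.06 and 0.05. With library totals in place of TMM the median of all fragments was 0.00, 0.01, -0.07 and 0.07, and that of the variants 0.26, 0.48, 0.23 and 0.03. Variants and main sequence therefore had like medians, both above that of all fragments at months 3, 6 and 9. Fewer fragments and less RNA per volume of serum cannot be told apart in such relative counts.

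The most abundant variants show this. T16C at 31 nt averaged 17700 ± 7280, 25900 ± 8000, 26500 ± 13600, 29400 ± 19100 and 15200 ± 2150 CPM at months 0, 3, 6, 9 and 15 (SD, n = 8 each). At month 0 its lowest, median and highest values were 3580, 18600 and 27400 CPM, and at month 15 they were 11100, 15300 and 18500 CPM, so the months overlap. G7A at 31 nt averaged 574 ± 248, 881 ± 309, 984 ± 384, 1030 ± 652 and 433 ± 199 CPM. T2C averaged 330 ± 137, 450 ± 163, 515 ± 103, 468 ± 78.3 and 268 ± 149 CPM. The 31 nt main fragment averaged 168000 ± 77400, 220000 ± 77300, 245000 ± 81700, 237000 ± 64800 and 127000 ± 54900 CPM. All were higher at months 3, 6 and 9 than at month 0 on average, by amounts that did not pass.

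The ratio to the main fragment of equal length tests whether a variant moved apart from it, since library depth cancels. None of the 15 such tests passed (exact two-sided sign-flip tests over 8 animals, Benjamini-Hochberg over 15). For T16C the mean change in log2 ratio was 0.09 at month 3 (SD 0.50), -0.12 at month 6 (SD 0.26), -0.03 at month 9 (SD 0.22) and 0.28 at month 15 (SD 0.69) against month 0, with exact p from 0.305 to 0.664. T16C at month 15 against month 3 changed by 0.19 (SD 0.58, exact p = 0.375). For T2C the changes lay between -0.20 and 0.04 (exact p from 0.5 to 0.82). G7A had the smallest p values: its log2 ratio was higher by 0.21 at month 3 (SD 0.23, higher in 7 of 8 animals, exact p = 0.0312) and by 0.20 at month 6 (SD 0.17, 7 of 8 animals, exact p = 0.0156). Both had an adjusted p of 0.234 and so did not pass. As a percentage of the main fragment, G7A averaged 0.409% ± 0.0812 at month 3 and 0.403% ± 0.0581 at month 6, against 0.347% ± 0.0216 at month 0.

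The variants with the smallest p against month 0, which did not pass, are named for completeness. At month 3 they were T16C with A24C and G26A at 31 nt (85.6 ± 27.0 CPM, against 51.1 ± 21.2 CPM at month 0), the double change T16C T20C (54.3 ± 19.3, against 33.8 ± 16.6) and T19G (470 ± 240, against 275 ± 113). All 3 were at 0.999 after adjustment. At month 6 they were T16C T20C, T16G and T4C, with 60.6, 31.8 and 471 CPM, against 33.8, 18.7 and 288 CPM at month 0, all at 0.303 after adjustment. At month 9 they were A9C, A9C with G26A, and T16C T20C, all at 0.582 after adjustment. At month 15 they were T16C at 25 nt (11.3 ± 10.6 CPM, against 3.19 ± 2.22, adjusted p = 0.0585), T3C at 30 nt (5.32 ± 3.50, against 11.2 ± 5.18, 0.0618) and T4C at 30 nt (4.70 ± 2.65, against 9.58 ± 5.17, 0.0838).

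Month 15 differed from the months between. Against month 3, 21 of the 162 variants were lower and none higher, where 3.92% of all fragments were lower and 7.19% higher. Against month 6, 56 were lower and 8 higher, where 9.52% of all fragments were lower and 17% higher. Against month 9, 49 were lower and 13 higher, where 12.4% of all fragments were lower and 18.2% higher. Of 149 main fragments, 21, 55 and 56 were lower and 2, 10 and 24 higher. As percentages, 13%, 34.6% and 30.2% of variants were lower, against 14.1%, 36.9% and 37.6% of main fragments, and 0%, 4.94% and 8.02% of variants were higher, against 1.34%, 6.71% and 16.1% of main fragments. With library totals in place of TMM scaling, 8 were lower and 9 higher against month 9, 31 lower and 7 higher against month 6 and none of either against month 3, and in these 3 comparisons 14.7%, 18.1% and 1.92% of all fragments passed. With the month 15 draws of PA8001 and PA8003 removed, the variants called were 0 against month 3, 5 of 169 against month 6 and 0 against month 9. The percentages of all fragments were then 0, 3.82 and 0.618, so the whole table lost calls. Without PA8003 altogether the variants called were 1, 19 and 11, where 0.935%, 12.6% and 7.68% of all fragments passed. Without PA8914 they were 0, 36 and 34, where 0%, 18.3% and 23.1% of all fragments passed. Without PA8001 they were 3 against month 3 and 18 against month 9, where 7.06% and 17.9% of all fragments passed. For month 3, leaving out PA8873 gave 0 calls, leaving out PA8912 gave 4 lower and leaving out PA8915 gave 8 lower. Leaving out PA8872 gave 7 higher and 2 lower, so most of those 9 calls were higher. Leaving out PA8835 gave 2 higher and 30 lower. In the same order, 0%, 7%, 4.73%, 6.63% and 14.6% of all fragments passed. The 3 comparisons share the month 15 samples.

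Direction followed fragment length in both. Against month 6, of 89 variants of 25 to 31 nt 56 were lower and 2 higher, with a median log2 fold change of -0.98. Of 73 variants of 32 to 36 nt none was lower and 6 were higher, with a median of 0.22. Of 75 main fragments of 25 to 31 nt 53 were lower and 2 higher (median -1.09), and of 74 of 32 to 36 nt 2 were lower and 8 higher (median 0.04). Against month 3, all 21 variants called lower were of 25 to 31 nt.

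**Figure D5:**
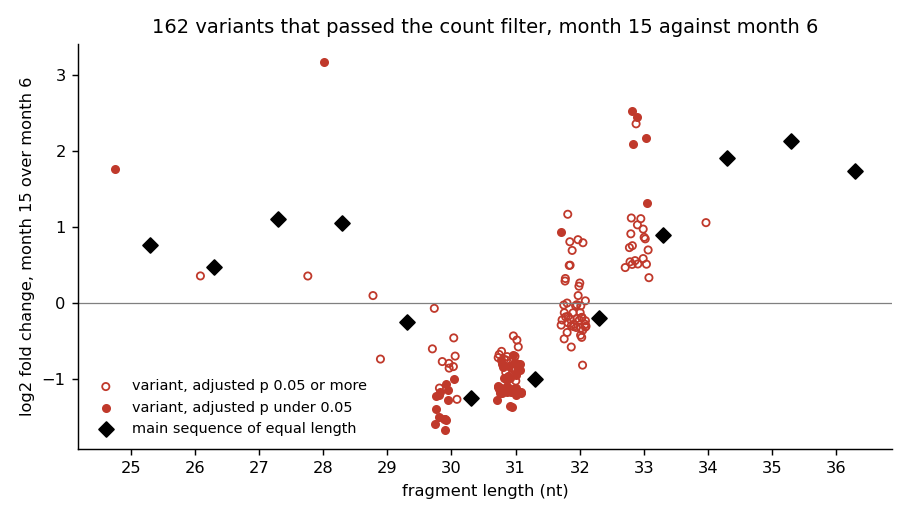
Log2 fold change of month 15 over month 6 (vertical axis) by fragment length in nt (horizontal axis) for the 162 variants tested (red, filled where edgeR's adjusted p was under 0.05) and the main fragment of each length (black diamonds). Variants of 30 and 31 nt all lie below 0, as the main fragments of those lengths do, and the filled points of 25, 28, 32 and 33 nt lie above 0.

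Several 30 nt variants were lower at month 15 against each of months 3, 6 and 9. T4C (tRF-30-7RMP9P9NH57S) had 4.70 ± 2.65 CPM at month 15, against 12.2 ± 6.34 at month 3, 12.7 ± 5.25 at month 6 and 13.5 ± 6.41 at month 9. Its log2 fold changes were -1.32 (SE 0.32), -1.39 (SE 0.32) and -1.47 (SE 0.32), with edgeR adjusted p of 0.0281, 0.00581 and 0.00567. T3C (tRF-30-S9MP9P9NH57S) had 5.32 ± 3.50 CPM, against 12.7 ± 5.21, 14.1 ± 4.37 and 14.2 ± 5.57 CPM, lower in 8, 7 and 8 of 8 animals. The main fragment of 30 nt changed by -1.18, -1.25 and -1.42 (adjusted p = 0.0436, 0.0156 and 0.012), so it fell by a like amount. G7A at 30 nt had 12.3 ± 8.43 CPM at month 15, against 35.8 ± 7.77 at month 6 and 36.7 ± 18.6 at month 9. G7C and A9G at 30 nt were lower against months 3 and 9: G7C had 3.99 ± 2.09 CPM, against 11.9 ± 6.08 and 14.3 ± 7.62, and A9G had 9.13 ± 4.92 CPM, against 18.1 ± 8.33 and 19.9 ± 6.18. At 31 nt, T8G was lower against month 3 (5.72 ± 3.65 CPM, against 11.9 ± 3.45, adjusted p = 0.0339). A9G (317 ± 162 CPM, against 636 ± 142) and T16G (15.6 ± 8.61, against 31.8 ± 5.36) were lower against month 6.

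T16C fragments were 48 of the 162 variants tested. Most of the variants that were higher at month 15 were T16C fragments: against month 6 all 8 carried T16C, and against month 9, 8 of 13 did. The shortest was T16C at 25 nt, tRF-25-79MP9PMNH5, with 11.3 ± 10.6 CPM, against 3.36 ± 2.45 at month 6 (log2 fold change 1.77, SE 0.47, adjusted p = 0.00825, higher in 8 of 8 animals). Fragments of 33 nt with T16C and G26A were higher by more, but unevenly. With no other change, tRF-33-79MP9PMNH5ISD3 had 427 ± 1080 CPM at month 15, against 14.1 ± 6.56 at month 9 (log2 fold change 2.73, SE 0.78, adjusted p = 0.0131). With T33C (tRF-33-79MP9PMNH5ISDJ) the values were 17.3 ± 39.0, against 1.40 ± 0.934 at month 6 and 1.23 ± 1.16 at month 9. With G30T (tRF-33-79MP9PMNH5I7D3) they were 10.8 ± 21.2, against 1.28 ± 0.95 and 1.46 ± 1.25, and with A24C (tRF-33-79MP9PMNHRISD3) 27.3 ± 66.3, against 1.5 ± 0.988 at month 9. In each of these 4 fragments the month 15 library of PA8001 was highest. For the first it had 3080 CPM, the next library, of PA8914, had 177 CPM, and the median was 36.3 CPM. T4C at 33 nt (28.9 ± 22.5 CPM, against 8.09 ± 5.28 at month 9, adjusted p = 0.0114) was higher in 8 of 8 animals. T16C with C29T at 33 nt (4.29 ± 2.87, against 1.66 ± 1.37 at month 6) was higher in 8 of 8 animals too, and T16C with A21G and G26A at 32 nt (9.52 ± 5.85, against 4.80 ± 1.48) in 7 of 8. The 33 nt fragments with T33C, G30T, A24C or C29T had monthly medians of 0.879 to 2.65 CPM before month 15 and 2.95 to 3.98 CPM then. They passed the count filter in part through month 15 itself, so their calls are not independent support for a rise. With a filter at 50 counts, 2 variants were higher against month 6 and 5 against month 9, of 84 tested. In either direction that fit called 33 and 37 of the 84, and 30.5% and 43.1% of all 1094 fragments.

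Across the 40 libraries, the fragments most like each leading variant were found among the variants by Pearson's r of log2(CPM + 1), with the main fragment's r given beside them, as a description over libraries that share animals and depth. The 31 nt T2C fragment was most like T8C (r = 0.994), C6T (0.988) and T3C (0.983), all of 31 nt, and less like the main fragment (0.885). Among the variants G7A was most like G7C (0.986), G7T (0.934) and G10A (0.926), and the main fragment, at 0.955, came between G7C and G7T. T16C was most like T16C with G26C (0.984), T16C with G26T (0.935) and T16C at 30 nt (0.905), with 0.647 for the main fragment. Of the leading variants, T16C was thus the least like the main sequence across libraries.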

How the data were processed

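The authors deposited a table of counts per distinct fragment sequence and library, whole numbers with no scaling, and a table of the sequences. Per the labels' protocols, RNA was extracted with a MagMAX kit and molecular identifiers were added at cDNA synthesis. Not given in the sources used here are the aligner, its mismatch limit, and whether counts were collapsed by identifier. The submitters' processing notes name R 4.5.0, edgeR and limma. Of 60201 lines, 1614 had no fragment name (0.0805% of counts) and were left out.

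Variants were read from the fragment names and compared base by base with the main sequence over its first 33 bases. Counts were tested in edgeR 4.0.16 (R 4.3.3), after its expression filter at 10 counts, which kept 2447 fragments. Scaling was by TMM, the robust quasi-likelihood model had terms for animal (the block) and month, and p-values were adjusted by Benjamini-Hochberg across the 2447. DESeq2 1.42.0 was an alternative. The labels name the animal of each library, which sets the pairing: after subtracting month means, same-animal libraries had a mean correlation of 0.191, against -0.0254 between animals. Ratios to the main sequence used a pseudocount of 0.5 counts and exact sign-flip tests over 8 animals. In simulated data of 2308 fragments for month 15 against month 0 the fit recovered 26.3% of changes of 1 on the log2 scale and 90.4% of changes of 2. There were 0 false calls among the unchanged fragments. The simulation had the same spread for all fragments, no differences between animals and no outlying library. Its false calls therefore do not give the error rate in the real libraries.

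Named variants are the 3 most abundant per block and, in each comparison, up to 5 per direction with the smallest p among those that passed with 7 or more of 8 animals in 1 direction, or the 3 smallest where fewer than 3 passed. Members, lists and comparisons were chosen with earlier results of these data known. For Gly-GCC the start first written down was a rare variant, so its most abundant start was used.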

Additional observations from a re-analysis of the deposited data

Results flagged for a closer look

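Values were flagged where, among the 8 libraries of a month, the gap between the outermost library and its neighbour exceeded Dixon's 95% limit as a share of the whole range. Of 65 groups looked at, 18 were flagged, where chance flags about 1 in 20.

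Most flags concern 2 animals. In PA8872, T20C of 34 to 36 nt stood at 13.2% of the main sequence at month 0, 3.92% at month 3, 6.99% at month 6 and 15.2% at month 9, each far above the next animal, at 0.328% to 0.670%. T20C of 33 nt in PA8872 stood at 5.99% at month 0, 0.767% at month 3 and 1.01% at month 9. In PA8001 at month 15, T20C of 33 nt stood at 19.5%, with the next animal at 1.57%, and all variants apart from T16C together at 8.95%, with the next at 2.21%.

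The month 0 library of PA8001, the shallowest of the 40, was high for 31 nt T2C (0.425%, next 0.252%), T3C (0.692%, next 0.245%) and A9G (0.413%, next 0.285%). It was also high for T16C at 32 nt (39.6%, next 22.2%) and at 30 nt (64.0%, next 23.9%), and for all variants apart from T16C together (3.59%, next 2.15%). The part of its depth in these values was not tested.

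The other flagged libraries were PA8915 at month 3 for T4C at 31 nt (0.236%, next 0.184%), PA8001 at month 9 for G7A at 31 nt (0.820%, next 0.458%) and PA8003 at month 15 for T16C at 32 nt (36%, next 21.1%).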

How the results depend on the processing

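The counts of variants called in the comparisons with month 15 changed with the processing, and those at months 3, 6 and 9 against month 0 stayed at 0 in every alternative except DESeq2, which called 1 at month 6. At month 15 against month 0, where none was called, DESeq2 called 7 and the fit without a filter 4. The fit with no replicate block, which ignores the pairing by animal, called 6. In the same order, 6.17%, 0.0905% and 2.82% of all fragments were called. Against month 3, in place of 21, DESeq2 called 52, DESeq2's size factors in edgeR 7 and library totals 0. A filter at 50 counts called 7 of 84 and no replicate block 13. Leaving out the 2 draws of PA8001 and PA8003 at month 15 gave 0. The shares of all fragments called were 21.2%, 8.46%, 1.92%, 16.5%, 7.4% and 0%. Against month 6, in place of 64, library totals called 38, no filter 34, the filter at 50 counts 33 and leaving out those 2 draws 5. Of all fragments, 18.1%, 0.591%, 30.5% and 3.82% were called. Against month 9, in place of 62, the same alternatives called 17, 27, 37 and 0. The shares of all fragments were 14.7%, 0.65%, 43.1% and 0.618%. Against month 9, library totals gave 9 higher and 8 lower. No replicate block gave 17 and 30, and called 28.9% of all fragments. With no filter, month 15 against month 3 gave 16 higher and 1 lower of all 962 variants, where 0.189% of all fragments passed. With no replicate block month 3 gave 8 higher and 5 lower. Between animals, in place of 32, DESeq2 called 59 of 162 variants, and 45.6% of all fragments. With no filter, 63 of 962 variants and 1.82% of all fragments were called. Leaving out 1 animal gave 0 to 3 calls at month 15 against month 0, 0 to 32 against month 3 and 19 to 69 against month 6. It gave 11 to 60 against month 9 and 9 to 31 between animals. Of all fragments, 0% to 3.1%, 0% to 14.6%, 12.6% to 27.1%, 7.68% to 34.3% and 11.5% to 33.4% were called.

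None of the 15 ratios to the main sequence passed under any alternative, and several changed sign. Without PA8001 and PA8003, the log2 ratio of T2C differed from month 0 by 0.022 at month 3, 0.244 at month 9 and 0.149 at month 15. At month 15 it differed from month 3 by 0.127. That of T16C differed from month 0 by -0.004 at month 3 and -0.029 at month 15, and at month 15 from month 3 by -0.025. G7A summed over lengths differed by 0.017 at month 15. Leaving out 1 animal gave T2C -0.139 to 0.084 at month 3, -0.058 to 0.096 at month 6, -0.217 to 0.152 at month 9 and -0.257 to 0.028 at month 15 against month 3. It gave T16C -0.045 to 0.165 at month 3 and -0.091 to 0.003 at month 9. The lower share of A at position 34 in T16C kept its direction and its call in 34 to 36 nt fragments (-6.25 points) and without each animal (-8.82 to -7.66 points), whereas that of T2C turned to 11.3 points at 34 to 36 nt, with few counts.

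Of 103 results on named fragments, 46 passed, and 39 of those lost the call without the 2 draws at month 15. Changes of sign all fell on fragments that did not pass: T4C at 31 nt at month 15 against month 0 (0.008 without those 2 draws) and T16C at 32 nt. The difference for T16C at 32 nt was -0.147 without a filter at month 15 against month 0, and against month 6 it was 0.017 with library totals, 0.055 with the filter at 50 counts and 0.075 without the 2 draws. Leaving out 1 animal gave it -0.051 to 0.184 at month 15, -0.012 to 0.424 at month 3, -0.117 to 0.229 at month 6 and -0.051 to 0.581 at month 9 against month 0. For month 15 it gave -0.347 to 0.025 against month 3, -0.215 to 0.128 against month 6 and -0.54 to 0.064 against month 9. Leaving out the month 15 library of PA8001 from the pooled percentages was chosen after its counts were seen. Depth limits the rare variants: 800 of the 962 did not pass the filter on low counts, and long fragments are few.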
